A study of Mus musculus with 10 samples.

Results

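The genes described here build the water barrier of the skin, and they were read in bulk RNA-seq of the developing mouse outer ear. The 10 members were taken by symbol from the 53465 genes of the count table: *Abca12*, *Cyp4f39*, *Elovl4*, *Cers3*, *Alox12b*, *Aloxe3*, *Tgm1*, *Tgm3*, *Asprv1* and *Aqp3*. Whole pinna prominences, the buds of the external ear, were micro-dissected at E14.5, in mid-gestation. There were 5 wild-type (WT) embryos, and 5 embryos homozygous for a germline knock-in (*mEC1*dup/dup) in which genome editing placed a further copy of the enhancer mEC1 on each allele, both on a C57BL/6J background. mEC1 is an enhancer of *Hmx1*, which encodes a homeodomain transcription factor. Every cell of a knock-in embryo carries the duplication, and the dissected tissue holds dermis, cartilage, muscle, vessels, nerve and surface epithelium together.

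The outermost layers of the epidermis keep water in through lipid sheets outside the cells and a crosslinked protein shell inside them. Very long fatty acids are made and joined to sphingoid bases to give ceramides, which are loaded into lamellar bodies, secreted and, after oxidation by lipoxygenases, attached to the shell. Transglutaminases crosslink the proteins of that shell, the cornified envelope. In the mouse the barrier is completed late in gestation, after the age sampled here, and human loss-of-function variants in several of these genes cause congenital ichthyosis, a disorder of dry and scaling skin.

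Barrier genes were lower in the knock-in pinna. Of the 10 members, 9 had enough counts to be tested and 7 of these were called lower in *mEC1*dup/dup, namely *Abca12*, *Tgm3*, *Cyp4f39*, *Asprv1*, *Aqp3*, *Cers3* and *Elovl4*. None was called higher, and all 9 estimates were negative, with a median log2 fold change of -1.45. Over all 16426 genes tested with edgeR's quasi-likelihood test, 1.81% were called lower and 0.834% higher, and the median log2 fold change was -0.0041. To be called, a gene needed a p-value, adjusted by Benjamini-Hochberg over the tested genes, at or under 0.05 and a level, averaged over libraries, of at least 1 on the log2 scale of counts scaled to library size (CPM). Calls in either direction came to 2.65%. In the same 7 members every WT embryo lay above every knock-in embryo, which held for 2.76% of all tested genes, with 2.31% in the opposite order. The members were chosen with earlier results of these data known, so these shares describe the list and do not test it. The decreases were unequal, from 4.37-fold for *Abca12* to 1.39-fold for *Elovl4*. In bulk tissue, fewer cells that express these genes and less RNA per such cell cannot be told apart.

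**Figure D1:**
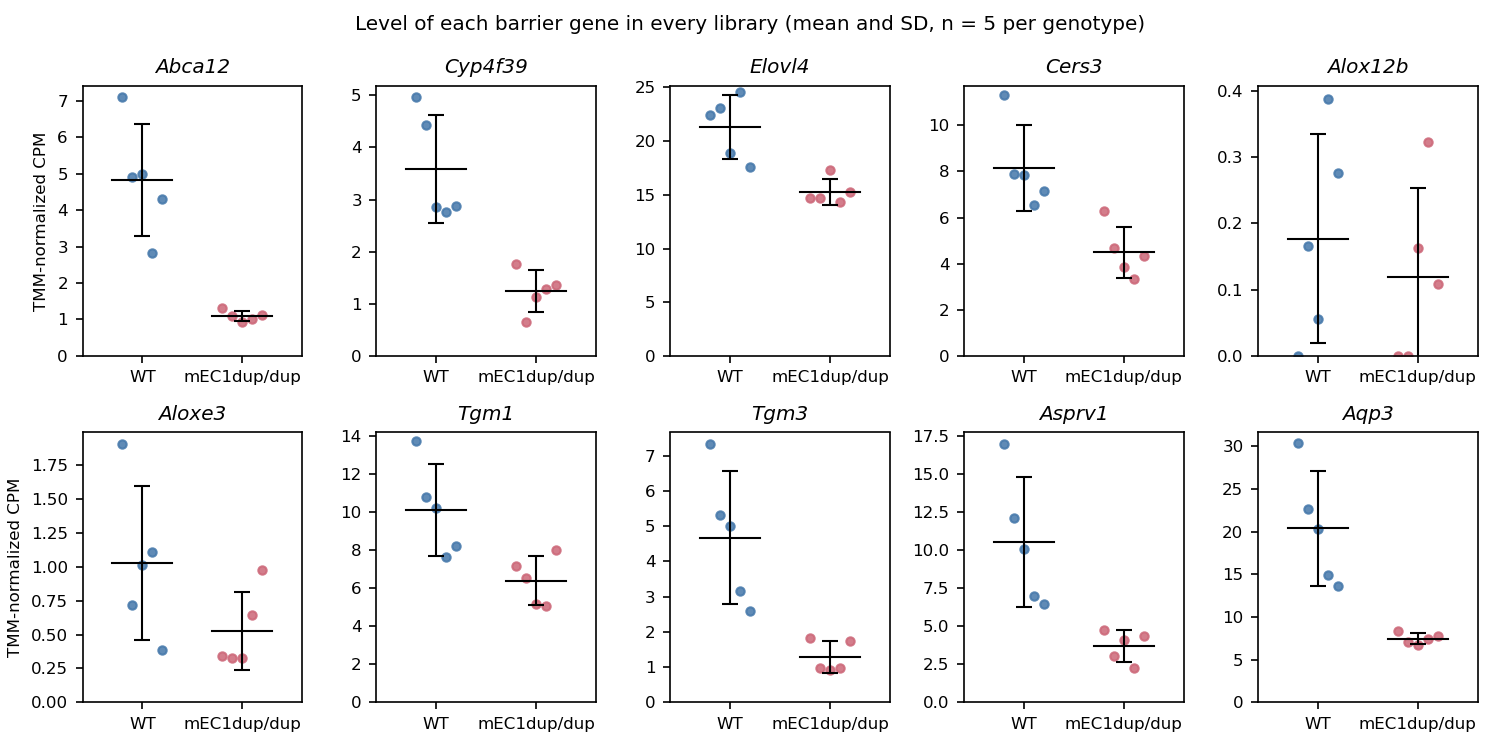
CPM of each of the 10 members on a linear axis from 0 in the 5 WT and the 5 *mEC1*dup/dup embryos, 1 point per embryo, with a line at the mean and error bars of 1 SD. In 7 panels all WT points lie above all knock-in points, and the points of *Tgm1*, *Aloxe3* and *Alox12b* overlap between the genotypes.

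Total counts lay between 17461544 and 18462073 per library, so depth differed little between embryos. *Hmx1* was higher in each library labelled knock-in (976 to 1356 counts) than in each WT library (376 to 526 counts), with a log2 fold change of 1.31 (SE 0.10, adjusted p = 0.000127, edgeR). The embryonic globin genes (*Hba-x*, *Hbb-y* and *Hbb-bh1*) held 21.3% ± 2.07 of all globin counts in WT embryos (SD, n = 5) against 34.3% ± 1.22 in knock-in embryos, with no overlap. Blood cells of the mouse turn from embryonic to adult globin around mid-gestation. *Xist*, which is transcribed from the inactive X chromosome of females, had 2 to 5 counts in the WT libraries, 2096 to 19040 in knock-in replicates 1 to 4 and 0 in knock-in replicate 5. The part of developmental stage in the results cannot be separated from genotype by these groups, and that of sex only through knock-in replicate 5. A fit on the 6 libraries with fewer than 10 *Xist* counts, which has knock-in replicate 5 as its only knock-in embryo and assumes that it varies as the WT embryos do, gave no call for any gene. The lowest adjusted p among the members was 0.721 in edgeR, and 7 of them, as 1171 of all 17854 genes tested in that fit, had an unadjusted p under 0.05. Log2 fold changes were then -2.08 for *Abca12*, -1.40 for *Cyp4f39*, -0.48 for *Elovl4*, -0.91 for *Cers3*, -1.43 for *Tgm3*, -1.26 for *Asprv1*, -1.38 for *Aqp3*, -0.33 for *Tgm1* and -0.07 for *Aloxe3*, the last being the one farthest from its value over all embryos, -0.95. When *Xist* was added as a covariate, all 9 tested members stayed negative, 7 had an unadjusted p under 0.05, as had 1535 of all 16426 tested genes, and none was called (lowest adjusted p = 0.167, edgeR). Over all genes that fit called 1 lower and 2 higher. Their median log2 fold change was then -1.44 against -1.45 without it, with *Abca12* at -2.14, *Aqp3* at -1.44, *Asprv1* at -1.44, *Cers3* at -0.99 and *Elovl4* at -0.51, while *Tgm1* was at -0.46 and *Aloxe3* at -0.17. When the embryonic globin share was added instead, which separates the genotypes completely, 8 of 9 estimates turned positive and *Elovl4* alone stayed negative (-0.64). *Aloxe3*, at 3.27 in the opposite direction to its value without the covariate, was the only member with an unadjusted p under 0.05. Of all tested genes 793 had such a p, and none was called (lowest adjusted p among the members = 0.898, edgeR).

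Compared per kilobase of exon in WT embryos, the members spanned a wide range of expression. *Aqp3* had the highest level, 11.1 ± 3.68 RPKM (CPM per kilobase; SD, n = 5), and was followed by *Elovl4* at 6.82 ± 0.948 and *Asprv1* at 4.54 ± 1.85. *Tgm1* (3.0 ± 0.719 RPKM) and *Cers3* (2.50 ± 0.570 RPKM) came next. *Cyp4f39* at 1.21 ± 0.350 RPKM and *Tgm3* at 1.13 ± 0.454 RPKM lay lower, and *Abca12* (0.326 ± 0.104 RPKM), *Aloxe3* (0.160 ± 0.0884 RPKM) and *Alox12b* (0.0522 ± 0.0467 RPKM) lowest. The ranges of neighbours in this order overlapped among WT embryos except between *Cers3* and *Cyp4f39* and between *Tgm3* and *Abca12*. In knock-in embryos *Elovl4* (4.89 ± 0.384 RPKM) stood above *Aqp3* (4.09 ± 0.348 RPKM), and their ranges met at 4.58 RPKM.

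The promoters of 5 members are shown. *Abca12* had the largest decrease of the lipid genes, *Tgm3* that of the crosslinking enzymes, *Aqp3* is the only channel gene, and *Cers3* and *Aloxe3* hold the HMX1 core. Each sequence is the 250 bases before the start of the Ensembl canonical transcript in GRCm39, 5′ to 3′ on the strand of the gene. *Abca12* lies at chr1:71454070-71454319 (minus strand), *Tgm3* at chr2:129854007-129854256 (plus strand), *Aqp3* at chr4:41098184-41098433 (minus strand), *Cers3* at chr7:66413667-66413916 (plus strand) and *Aloxe3* at chr11:69016472-69016721 (plus strand). Capitals mark matches, on either strand, to the HMX1 core CAAGTG, the grainyhead-like motif AACCNGTT, the AP-1 motif TGANTCA, the C/EBP motif TTNNGNAA or the TATA box TATAAA.
Abca12: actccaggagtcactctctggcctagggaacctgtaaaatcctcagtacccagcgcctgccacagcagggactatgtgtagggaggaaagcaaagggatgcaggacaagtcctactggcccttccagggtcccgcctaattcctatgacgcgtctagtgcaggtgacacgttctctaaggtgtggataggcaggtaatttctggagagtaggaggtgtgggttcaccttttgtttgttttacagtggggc
Tgm3: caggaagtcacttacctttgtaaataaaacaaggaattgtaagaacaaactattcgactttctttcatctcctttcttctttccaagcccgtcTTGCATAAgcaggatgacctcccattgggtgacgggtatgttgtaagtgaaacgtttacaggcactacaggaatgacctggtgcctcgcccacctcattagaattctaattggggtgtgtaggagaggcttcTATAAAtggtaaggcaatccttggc
Aqp3: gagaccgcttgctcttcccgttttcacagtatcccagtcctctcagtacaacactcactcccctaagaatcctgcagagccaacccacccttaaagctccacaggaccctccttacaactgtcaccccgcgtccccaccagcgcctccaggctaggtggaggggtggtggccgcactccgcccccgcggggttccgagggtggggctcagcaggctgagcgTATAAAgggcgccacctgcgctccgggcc
Cers3: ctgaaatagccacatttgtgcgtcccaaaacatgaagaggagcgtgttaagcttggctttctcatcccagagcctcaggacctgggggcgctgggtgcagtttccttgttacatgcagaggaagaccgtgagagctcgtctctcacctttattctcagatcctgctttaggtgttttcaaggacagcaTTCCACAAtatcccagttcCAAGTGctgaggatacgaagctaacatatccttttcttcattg
Aloxe3: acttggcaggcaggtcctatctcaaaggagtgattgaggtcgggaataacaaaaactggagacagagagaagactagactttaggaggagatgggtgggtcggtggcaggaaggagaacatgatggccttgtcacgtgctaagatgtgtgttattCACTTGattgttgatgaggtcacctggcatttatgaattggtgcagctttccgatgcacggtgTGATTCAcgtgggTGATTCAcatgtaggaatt

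The HMX1 core occurred in 2 of the 10 member promoters, 43 bases before the start of *Cers3* and 95 bases before that of *Aloxe3*, and in 12.4% of the 21770 promoters of protein-coding genes cut in the same way. The TATA box occurred in 2 of the 10 member promoters, 25 bases before the start in *Tgm3* and 29 bases before it in *Aqp3*. It was anywhere in the window, on either strand, in 11.9% of all promoters. AP-1 matched in 1 member, at 2 places in *Aloxe3* (at least 1 match in 6.2% of all promoters). C/EBP matched in *Cers3* and *Tgm3* (36.9% of all promoters). The grainyhead-like motif (1.8% of all promoters) was in none of the 10 windows, and the window of *Abca12*, the member with the largest decrease, held none of the 5 motifs. These are matches of letters and not measured binding sites.

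The genes of lipid supply fell in all 4 cases. *Abca12* encodes the transporter that loads glucosylceramides into lamellar bodies, and its loss causes harlequin ichthyosis in people. The gene (ENSMUSG00000050296) spans chr1:71281435-71454069 on the minus strand of GRCm39. Its counts were 123, 89, 89, 51 and 78 in WT replicates 1 to 5 and 23, 20, 17, 19 and 21 in knock-in replicates 1 to 5. All knock-in values lay close together and below the lowest WT embryo. WT embryos averaged 4.83 ± 1.54 CPM (SD, n = 5 here and for each CPM that follows), against 1.10 ± 0.145 CPM in knock-in embryos. The log2 fold change was -2.13 (SE 0.23, adjusted p = 0.00126, edgeR) with a 95% interval from -2.63 to -1.62. By p-value it ranked 5 among all tested genes.

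*Cyp4f39* encodes a cytochrome P450 that adds a hydroxyl group to the far end of ultra-long fatty acids, the step that allows acylceramides to form. It (ENSMUSG00000061126) lies at chr17:32671694-32712396 on the plus strand. WT embryos had 86, 80, 51, 50 and 52 counts and knock-in embryos 31, 12, 21, 24 and 25. WT replicates 1 and 2 stood above the other WT embryos, and the highest knock-in embryo stayed under the lowest WT embryo. The level went from 3.58 ± 1.04 CPM to 1.24 ± 0.400 CPM, a log2 fold change of -1.52 (SE 0.26, adjusted p = 0.0107, edgeR; 95% interval -2.08 to -0.96).

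*Cers3* encodes the ceramide synthase that uses ultra-long acyl chains, and it (ENSMUSG00000030510) lies at chr7:66393252-66473439 on the plus strand. WT counts were 196, 143, 140, 118 and 129, and knock-in counts were 110, 85, 71, 62 and 80. The groups were separated by a narrow gap, between 110 counts in knock-in replicate 1 and 118 in WT replicate 4. Levels of 8.14 ± 1.86 CPM in WT and 4.49 ± 1.12 CPM in knock-in embryos gave a log2 fold change of -0.86 (SE 0.19, adjusted p = 0.0292, edgeR). The call was kept in 3 of the 10 fits that left out an embryo, with an adjusted p between 0.0130 and 0.0901, and it was lost without WT replicates 1, 2 or 3 or knock-in replicates 2, 3, 4 or 5.

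*Elovl4* encodes the elongase that makes the ultra-long chains for *Cers3* to use, and it is also active in retina and brain. It (ENSMUSG00000032262) lies at chr9:83660744-83688430 on the minus strand. Counts were 389, 418, 337, 445 and 318 in WT and 258, 268, 320, 266 and 283 in knock-in embryos. The highest knock-in embryo, replicate 3, had a count within those of the WT embryos, and scaled to library size it had 17.3 CPM against 17.6 CPM in the lowest WT embryo. The decrease was the smallest of the 7 called, with 21.3 ± 2.96 CPM in WT, 15.3 ± 1.20 CPM in knock-in embryos and a log2 fold change of -0.48 (SE 0.10, adjusted p = 0.0207, edgeR; 95% interval -0.69 to -0.27). The call was lost when WT replicate 1 or 2 or knock-in replicate 2 or 4 was left out, with an adjusted p up to 0.0648.

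Neither epidermal lipoxygenase gave a call, *Alox12b* for want of counts and *Aloxe3* with embryos that overlapped between the genotypes. *Alox12b* and *Aloxe3* encode enzymes that act in sequence on the linoleate of acylceramides. They are neighbours on chromosome 11 and on the same strand, with *Aloxe3* (ENSMUSG00000020892) at chr11:69016722-69039941 and *Alox12b* (ENSMUSG00000032807) at chr11:69041472-69060618, between *Hes7* and *Alox8*. *Alox12b* had 0, 3, 1, 7 and 5 counts in WT and 0, 0, 3, 6 and 2 in knock-in embryos and did not pass the filter on low counts. Libraries with a count of 0 allow up to 3 counts, or 0.173 CPM. The sums were 16 counts in WT (95% exact Poisson interval 9.15 to 26.0) and 11 in knock-in embryos (5.49 to 19.7), a ratio of 0.674 (0.283 to 1.55), and these intervals cover counting error only. A difference in *Alox12b* was not detectable at this depth.

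*Aloxe3* had 33, 13, 18, 20 and 7 counts in WT and 6, 6, 6, 12 and 18 in knock-in embryos, so the groups overlapped. The sums were 91 and 48 counts, a ratio of 0.517 with a counting interval of 0.357 to 0.741 that leaves out the spread between embryos. The coefficient of variation among embryos was 55.2% in WT and 54.6% in knock-in embryos. The means were 1.03 ± 0.566 CPM and 0.523 ± 0.286 CPM, and the log2 fold change of -0.95 (SE 0.43) did not pass the threshold (adjusted p = 0.300, edgeR). Its 95% interval ran from -1.89 to -0.01, and its average of -0.18 log2 CPM was under the level that a call required.

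Of the crosslinking enzymes *Tgm3* was called lower and *Tgm1* was not. *Tgm3* encodes a transglutaminase of the upper epidermis and hair that is activated by proteolysis, and it (ENSMUSG00000027401) lies at chr2:129854257-129892319 on the plus strand. It had 127, 96, 89, 57 and 47 counts in WT and 32, 18, 17, 18 and 32 in knock-in embryos. WT embryos differed among themselves by up to 2.82-fold in CPM, yet the lowest, replicate 5, stayed above every knock-in embryo. The level was 4.68 ± 1.88 CPM in WT and 1.29 ± 0.450 CPM in knock-in embryos, a log2 fold change of -1.86 (SE 0.31, adjusted p = 0.00944, edgeR; 95% interval -2.52 to -1.19).

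*Tgm1* encodes the membrane-bound transglutaminase that is mutated most often in lamellar ichthyosis, and it (ENSMUSG00000022218) lies at chr14:55937466-55951383 on the minus strand. WT counts were 238, 195, 182, 138 and 148 and knock-in counts 126, 119, 95, 94 and 148. Knock-in replicate 5 lay within the WT range and the other knock-in embryos below it. With 10.1 ± 2.42 CPM against 6.39 ± 1.28 CPM, the log2 fold change of -0.66 (SE 0.18; 95% interval -1.04 to -0.28) just missed the threshold (adjusted p = 0.0668, edgeR). It was called with DESeq2's Wald test (adjusted p = 0.00938), with no filter on low counts (edgeR, adjusted p = 0.0492) and without WT replicate 4 (edgeR, adjusted p = 0.0261). Limma-voom did not call it (adjusted p = 0.0765), so the call of *Tgm1* turns on the filter and the embryos included as well as on the test.

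*Asprv1* encodes a retroviral-like aspartic protease of the granular layer that cleaves profilaggrin, and it (ENSMUSG00000033508) lies at chr6:86595254-86606692 on the plus strand. WT embryos had 294, 219, 179, 126 and 117 counts and knock-in embryos 83, 55, 75, 42 and 81. Replicate 1 was the highest in each genotype, and the groups did not overlap. The level fell from 10.5 ± 4.28 CPM to 3.69 ± 1.02 CPM, a log2 fold change of -1.51 (SE 0.27, adjusted p = 0.0126, edgeR; 95% interval -2.09 to -0.92).

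*Aqp3* encodes a channel for water and glycerol that is abundant in the basal and lower suprabasal epidermis, and it (ENSMUSG00000028435) lies at chr4:41092722-41098183 on the minus strand. Counts were 527, 410, 362, 270 and 246 in WT and 147, 128, 125, 137 and 144 in knock-in embryos. The knock-in embryos were nearly equal and all well below the lowest WT embryo. The mean of 20.4 ± 6.73 CPM in WT and 7.47 ± 0.636 CPM in knock-in embryos gave a log2 fold change of -1.45 (SE 0.19, adjusted p = 0.00327, edgeR; 95% interval -1.85 to -1.04).

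**Figure D2:**
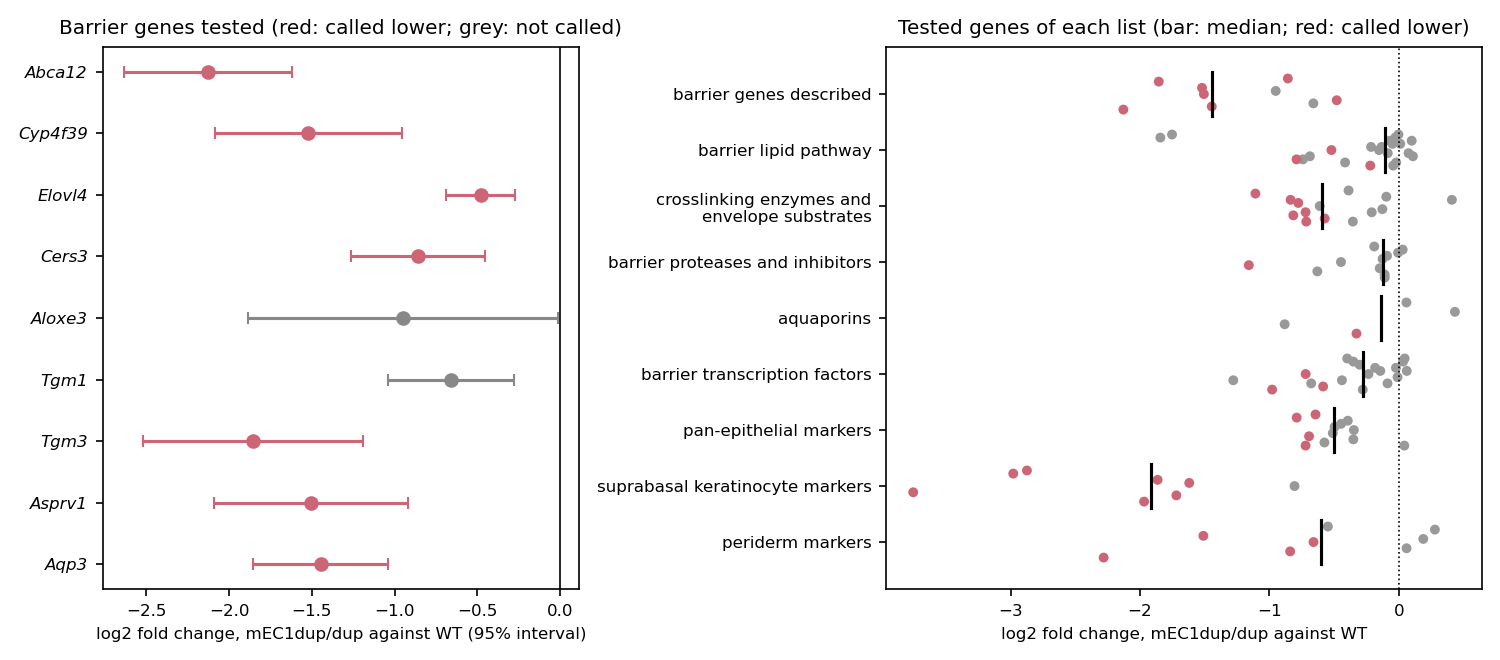
Log2 fold changes of *mEC1*dup/dup against WT on the horizontal axes, for the 9 tested members with 95% intervals (left) and for the tested genes of each list as points with a bar at the median (right), red where called lower and grey where not called. The interval of *Abca12* (-2.63 to -1.62) lies farthest from 0 and that of *Aloxe3* (-1.89 to -0.01) is the widest.

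WT embryos were not alike in these genes. Replicate 1 had the highest CPM of the WT embryos in 8 of the 9 tested members, where it was highest in 18.9% of all tested genes, and the exception was *Elovl4*, with its highest value in replicate 4. The lowest WT value was that of replicate 4 in 4 members and that of replicate 5 in 5 members. Over all tested genes these replicates were lowest in 27.1% and 16.9%. The median coefficient of variation among WT embryos was 31.9% for the members and 9.15% for all tested genes, and among knock-in embryos 24.8% and 8.48%. Without WT replicate 1 the log2 fold changes were still negative in all 9 members, with a median of -1.26. Of the 9, 5 were called lower, in a fit that called 164 of 16611 tested genes lower and 56 higher. *Abca12*, *Cyp4f39*, *Tgm3*, *Asprv1* and *Aqp3* were called in each of the 10 fits that left out an embryo.

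Within a genotype, members tended to be high or low in the same embryos. After centring on the genotype means, the 36 pairs of tested members had a median Pearson r of 0.626 over the 10 libraries, the highest being 0.914 between *Tgm1* and *Tgm3*. *Elovl4* stood apart, with r = -0.271 to *Abca12*. Among the genes outside the list whose centred log2 CPM was most like the members' mean were *Krt1* (r = 0.977, Spearman's rho = 0.952), *Krt10* (0.975 and 0.927), *Cdh1* (0.973 and 0.915) and *Krt17* (0.968 and 0.915). Without WT replicates 1 and 5, which lay farthest from the median of the members, r of these 4 ranged from 0.912 for *Krt17* to 0.938 for *Cdh1*. *Krt1* (log2 fold change -1.97, adjusted p = 0.00353, edgeR) and *Krt10* (-1.86, adjusted p = 0.00188) were called lower, and *Cdh1* (-0.45, adjusted p = 0.0947) and *Krt17* (-0.55, adjusted p = 0.216) were not. These correlations rest on 10 libraries that also share any difference in the amount of epithelium.

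Markers of the epithelium were read in the same embryos, and 4 of 12 pan-epithelial markers were called lower. The summed CPM of 12 pan-epithelial markers was 1482 ± 342 in WT embryos (SD, n = 5) against 997 ± 112 in knock-in embryos. The ranges, 1149 to 1989 and 917 to 1194, overlapped through knock-in replicate 1 alone. The keratins *Krt5* (log2 fold change -0.69) and *Krt14* (-0.64) of the basal layer, the apoptosis effector and desmosome gene *Perp* (-0.79) and the desmosomal plakin *Dsp* (-0.72) were called lower. The other 8 were not called. Of the 12 estimates 11 were negative, with a median of -0.50, and the adhesion gene *Epcam* was at 0.04 (adjusted p = 0.867, edgeR). Suprabasal keratinocyte markers differed more, with a summed CPM of 176 to 511 in WT and 63.4 to 87.1 in knock-in embryos. Of 8 tested, 7 were called lower (*Krt1*, *Krt10*, *Krt77*, *Dsc1*, *Dsg1a*, *Krtdap* and *Dmkn*), the median log2 fold change was -1.92, and *Sbsn* was not called.

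**Figure D3:**
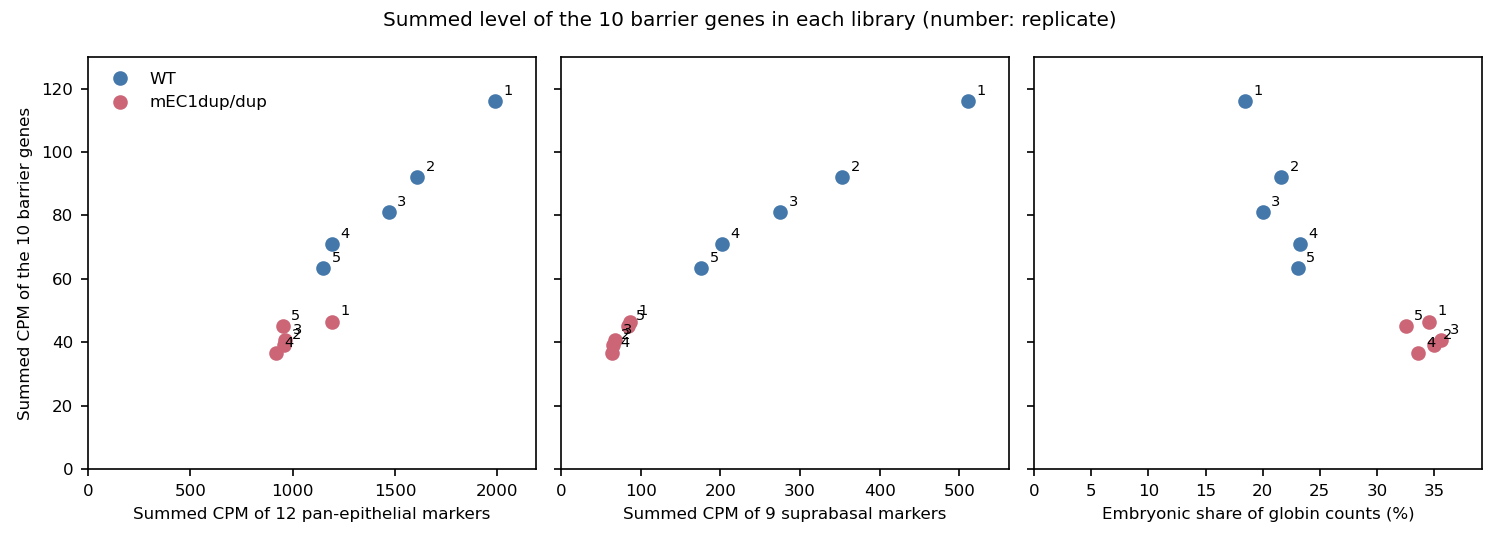
Summed CPM of the 10 members in each embryo against the summed CPM of pan-epithelial markers, of suprabasal keratinocyte markers and against the embryonic globin share, 1 point per embryo labelled by its replicate number. The members' sum runs from 63.4 to 116 CPM in WT and from 36.6 to 46.5 CPM in *mEC1*dup/dup embryos.

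Set against the pan-epithelial markers of the same embryo, the members split. *Abca12* made up 0.323% ± 0.0548 of their summed CPM in WT embryos (SD, n = 5) against 0.110% ± 0.00886 in knock-in embryos. *Aqp3* went from 1.35% ± 0.136 to 0.753% ± 0.0550 and *Tgm3* from 0.306% ± 0.0586 to 0.128% ± 0.0375. *Asprv1* went from 0.687% ± 0.120 to 0.368% ± 0.0861, and *Cyp4f39* from 0.240% ± 0.0298 to 0.124% ± 0.0326. In these 5 members every WT embryo still lay above every knock-in embryo. In the same ratio this held for 0.219% of all tested genes, and the opposite order for 21.1%, with a marker sum that was itself lower on average in knock-in embryos. The ratios of the other 5 overlapped, with *Elovl4* at 1.49% ± 0.354 and 1.55% ± 0.205, *Tgm1* at 0.681% ± 0.0280 and 0.643% ± 0.125 and *Cers3* at 0.552% ± 0.0475 and 0.446% ± 0.0651. A further fit took the mean log2 CPM of the 12 pan-epithelial markers, and not their sum, as a covariate. It called 15 of all tested genes lower and 2 higher. In it *Abca12* (log2 fold change -1.46, adjusted p = 0.0469, edgeR) and *Aqp3* (-0.72, adjusted p = 0.0469) stayed called and the other 5 called members did not. Of those 5, *Elovl4* was at -0.44 against -0.48 without the covariate, *Cyp4f39* at -0.90 against -1.52, *Tgm3* at -0.85 against -1.86, *Asprv1* at -0.54 against -1.51 and *Cers3* at -0.31 against -0.86.

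Set against the suprabasal markers, whose sum was lower in every knock-in embryo, no member had all WT embryos above all knock-in embryos, which held for 0.0183% of all tested genes. The opposite order, which the lower sum favours, held for 91.3% of all tested genes and for 4 members. As shares of the summed CPM in WT and knock-in embryos, those 4 were *Elovl4* (8.0% ± 3.08 and 21.2% ± 3.64), *Tgm1* (3.58% ± 0.756 and 8.70% ± 1.04), *Cers3* (2.92% ± 0.768 and 6.11% ± 1.02) and *Aqp3* (6.98% ± 0.754 and 10.3% ± 0.952). The ratios of the other 6 overlapped, with *Abca12* at 1.69% ± 0.465 and 1.51% ± 0.148 and *Tgm3* at 1.56% ± 0.150 and 1.72% ± 0.336. The part that the number of epithelial or suprabasal cells had in the members' decrease was not tested.

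**Figure D4:**
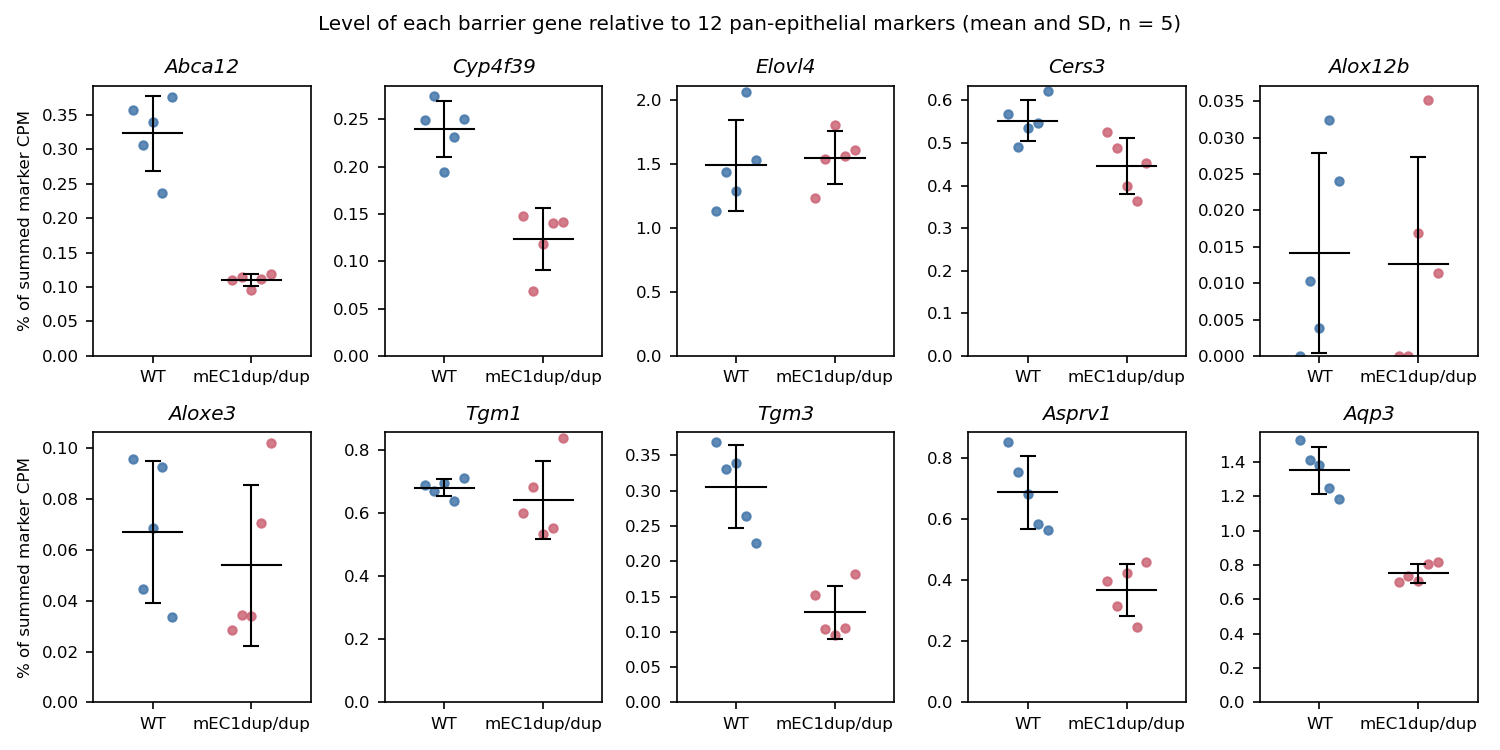
CPM of each member as a percentage of the summed CPM of 12 pan-epithelial markers in the same embryo, 1 point per embryo, with a line at the mean and error bars of 1 SD (n = 5). *Abca12*, *Cyp4f39*, *Tgm3*, *Asprv1* and *Aqp3* remain separated between the genotypes, and *Elovl4*, *Cers3*, *Tgm1*, *Aloxe3* and *Alox12b* overlap.

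Markers of periderm and of the tissues under the epithelium are given for the same embryos. Among 8 periderm markers, *Krt4* (log2 fold change -2.28), *Krt6a* (-1.51), *Krt19* (-0.84) and *Sfn* (-0.66) were called lower, and *Krt17* (-0.55), *Krt8* (0.06), *Krt18* (0.19) and *Cldn6* (0.28) were not called. The summed periderm markers ranged from 194 to 332 CPM in WT and from 159 to 190 CPM in knock-in embryos. In muscle, *Acta1* (-0.88), *Ckm* (-2.25), *Myh3* (-0.61) and *Tnnt3* (-1.06) were called lower out of 7. The other 3 were not called, with *Myod1* at 0.09, *Myog* at 0.12 and *Des* at -0.40. In fibroblasts *Dpt* (-0.77) and *Lum* (-0.30) were called lower out of 8. Of the 8 estimates 6 were negative and 2 positive, the latter *Pdgfra* (0.08) and *Prrx1* (0.07). The 25 markers of chondrocytes, endothelium, macrophages, melanoblasts, glia and neurons gave 0 calls with edgeR and 0 with DESeq2's Wald test. With edgeR 2.65% of all tested genes were called. Of the 25 markers 6 had an unadjusted p under 0.05 with edgeR, as had 2658 of all 16426 tested genes. Median log2 fold changes were -0.42 for glial and neuronal, -0.30 for chondrocyte and -0.26 for melanoblast markers. They were 0.01 for endothelial and 0.02 for macrophage markers.

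Of 33 other genes of barrier lipids, 22 were tested, 3 were called lower and none higher, and the median log2 fold change was -0.11. The called genes were *Elovl1*, a fatty acid elongase (-0.22, adjusted p = 0.0321, edgeR), *Alox12*, a lipoxygenase (-0.79, 0.0143), and *Dgat2*, an enzyme of triglyceride synthesis (-0.52, 0.0126). *Pnpla1*, which makes acylceramide (-1.75, adjusted p = 0.0143), and the epidermal lipase *Lipm* (-1.84, adjusted p = 0.0207) passed the adjusted p in edgeR but lay below the level threshold. *Pnpla1* and *Lipm* are named after their values were seen.

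Among 33 genes of crosslinking enzymes and envelope substrates, 14 were tested, 7 were called lower and none higher, with a median of -0.59. The lowest p-values belonged to the annexin *Anxa1* (-0.72, adjusted p = 0.00632, edgeR), the envelope precursor sciellin gene *Scel* (-1.11, 0.0207) and the desmosomal plakophilin *Pkp1* (-0.84, 0.0208). The other 4 lay between -0.57 and -0.82. Many envelope genes had few or no counts: 19 of the 33 were not tested, 13 had under 10 counts over all libraries and 7 had none.

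Of 18 barrier proteases and inhibitors, 11 were tested and *Serpinb5* (maspin) alone was called, at -1.16 (adjusted p = 0.0458, edgeR), with a median of -0.13 over the list. Of 11 other aquaporins, 4 were tested and *Aqp1*, the channel of endothelium and red cells, was called lower (-0.33, adjusted p = 0.0187, edgeR). All 19 transcription factors of barrier formation were tested, with a median of -0.28. *Grhl1* (-0.98, adjusted p = 0.0273, edgeR), *Zfp750* (-0.72, 0.0225) and *Cebpa* (-0.58, 0.0126) were called lower and none higher. *Hopx*, a homeodomain-only protein gene named after its value was seen, had the largest decrease of the list (-1.28, adjusted p = 0.0273, edgeR), with every WT embryo above every knock-in embryo, but lay below the level threshold.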

How the data were processed

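Bulk RNA-seq of E14.5 pinna prominences from 5 WT and 5 *mEC1*dup/dup embryos was re-analysed. The authors trimmed reads with fastp, aligned them with STAR to GRCm39 and counted reads with featureCounts, and the deposited values are raw counts per gene without normalization. Annotation release, use of strand and treatment of reads with several matches are not given in the sources used here, so reads of antisense partners of *Abca12*, *Cyp4f39*, *Tgm1*, *Asprv1* and *Alox12b*, which overlap at most 5.61% of their exon bases, cannot be told apart. Symbols, positions and exon lengths came from GENCODE release 39 of the mouse, which matched 49355 of 53465 genes.

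Counts were filtered with filterByExpr, scaled by TMM and fitted by genotype alone with the quasi-likelihood test of edgeR version 4.0.16 in R version 4.3.3. P-values were adjusted by Benjamini-Hochberg over 16426 genes, and a gene was called where this was at or under 0.05 and its mean log2 CPM reached 1, as in the study. The study names limma, Glimma and edgeR without a test. SE is the log2 fold change over the square root of F, and log2 CPM used a prior count of 2. RPKM is CPM per kilobase of joined exons. Totals of 17461544 to 18462073 counts limit only genes with few counts. Intervals from counts cover counting error only and treat each read as a separate molecule. Reads carry no molecular identifiers, so this could not be checked. Counts of any pair of libraries within a genotype differed by more than sampling allows (chi-square over degrees of freedom, at least 2.56), so none was a duplicate, and they are counted as separate embryos.

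Members and lists were chosen with earlier results of these data known, so no p was adjusted over a list. Named genes are the members, the check genes, the called genes of each marker list, those of each pathway list (the 3 with the lowest p where more than 6 were called) and the 5 genes most like the members' mean, of which 1 is not reported here. Markers named without a call, and the genes the text says so of, were picked after their values were seen. Motif letters were written by hand after the values were seen. Alternatives changed the scaling (size factors of DESeq2 version 1.42.0, upper quartile, total counts), the test (DESeq2's Wald test, limma-voom with limma version 3.58.1), the filter, the thresholds, the replicate block, covariates and the embryos included. On simulated counts, 92.5% of 200 genes changed by a log2 fold change of 1 among 16254 were called, with 6 false calls. Figures were drawn with matplotlib version 3.10.9.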

Additional observations from a re-analysis of the deposited data

Results flagged for a closer look

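Of 56 groups of 5 libraries checked for a library far from the others, 2 held one, and chance alone marks about 1 group in 20. In knock-in replicate 1 the log2 summed CPM of pan-epithelial markers was 10.22, with the nearest knock-in library at 9.91. In the same library the log2 summed CPM of chondrocyte markers was 11, with the nearest at 12.11. Knock-in replicate 1 also had the highest CPM of the knock-in embryos in 6 of the 9 tested barrier genes, against 23.5% of all tested genes. No barrier gene itself, and neither the embryonic globin share nor *Hmx1*, was marked in either genotype.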

How the results depend on the processing

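With other scalings (DESeq2's size factors, upper quartile, total counts), limma-voom, a filter at a mean of 1 CPM or no threshold on log2 CPM, 7 members stayed called lower and none higher, and all tested members had negative estimates. With DESeq2's Wald test or no filter, *Tgm1* joined them, making 8. DESeq2's Wald test called 510 of all genes lower and 321 higher, against 298 and 137. At an adjusted p of at most 0.01, 3 members, 1 gene of the other barrier lists, 62 of all genes lower and 16 higher were called, against 7, 15, 298 and 137. With the *Xist* covariate these counts were 0, 0, 1 and 2. With the pan-epithelial covariate they were 2, 0, 15 and 2. With the embryonic globin covariate, and in the libraries with fewer than 10 *Xist* counts, they were all 0, where 793 and 1171 genes had an unadjusted p under 0.05 in edgeR. *Hmx1* then gave log2 fold changes of 0.34 and 0.99, neither called. With the globin covariate, estimates turned positive in *Abca12* (0.094), *Cyp4f39* (0.15), *Cers3* (0.39), *Aloxe3* (3.27), *Tgm1* (1.22), *Tgm3* (1.43), *Asprv1* (1.02) and *Aqp3* (0.81), none of them called, and *Elovl4* stayed at -0.64. That share separates the genotypes completely, and the cause of these shifts was not tested.

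Leaving out an embryo in turn gave 5 to 8 called members and 4 to 16 called genes of the other barrier lists. Over all genes it gave 120 to 476 lower and 34 to 179 higher, the lowest counts without knock-in replicate 3 and the most genes called lower without WT replicate 4. The count of genes called lower moved by over 1.5 times without WT replicates 1, 2, 3 or 4 or knock-in replicates 2, 3 or 4. *Hmx1* stayed between 1.25 and 1.38.

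WT and knock-in libraries share replicate numbers. Same-numbered libraries had a mean correlation of deviations of 0.162, against -0.040 for libraries of unlike number. The highest values were 0.345 and 0.272. Of the same-numbered pairs 4 of 5 were over 0.1, but replicate 1 was at -0.06, so the numbers were not taken as pairs. Whether same-numbered libraries were handled together was not tested. With the replicate block, 488 of all genes were called lower and 8 members, *Tgm1* included (-0.65, adjusted p = 0.0314, edgeR).

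Depth limits *Alox12b*, which had at most 7 counts in a library.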
